A study of Mus musculus with 2 samples.

Results

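Fibrous cells of the mouse knee that carried Angptl7, Nox4, Fgf9, Slurp1 or Dmkn were described across single-cell libraries of knee joint cartilage. A cell was taken where at least 2 of these 5 genes had a UMI (unique molecular identifier, a tag that counts 1 captured RNA molecule), Prg4 was under 20000 CPM and Col2a1 under 2000 CPM of the cell, Col1a1 was at least 1000 CPM, and fewer than 3 of Postn, Tnn, Mmp13, Cpxm1 and Megf6 were detected. CPM is a gene's UMIs scaled to 1e6 UMIs of the cell or of the summed cells. The rule found 711 of 19881 kept cells (3.58%), 386 of 9889 after DMM and 325 of 9992 after sham surgery, and they are called Angptl7/Nox4 cells here. Both groups were WT mice: 3 were pooled after DMM surgery, which destabilises the medial meniscus of the knee and is used to induce osteoarthritis, and 3 were pooled after sham surgery, with 1 library each. Age, sex, strain and time after surgery are not given in the labels used here. Live cells positive for Calcein AM and negative for DAPI had been sorted without CD45 (blood cells), Ter119 (red blood cells) and CD31 (endothelium), and the labels call them superficial cells. Prg4, the marker of superficial cartilage, had 2021 CPM in DMM and 2304 CPM in sham cells of the rule, against 69947 and 62272 CPM in the cells above its limit.

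Dense connective tissue of a joint includes ligament, tendon, capsule, meniscus and the fibrous layers beside cartilage. Its fibroblasts build collagen fibres and coat them with small leucine-rich proteoglycans, which set fibre diameter and bind growth factors. Angptl7 is a secreted angiopoietin-like protein known from the cornea and the outflow tissue of the eye, and Nox4 is an NADPH oxidase that releases hydrogen peroxide. Fgf9 is a fibroblast growth factor of skeletal development. Slurp1 is a small secreted Ly6 protein known from keratinocytes, where it acts on nicotinic acetylcholine receptors, and Dmkn (dermokine) is a secreted protein of the epidermis.

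The cells had medians of 7195.5 UMIs in DMM and 6920 in sham, within 1354 to 32789 and 835 to 29160 UMIs. Their summed UMIs were 3048292 in DMM and 2506533 in sham. The libraries shared 24 barcodes, of which 0 belonged to Angptl7/Nox4 cells, and Scrublet called 5 DMM and 6 sham cells doublets, which were kept. With 1 library per group there was no test between DMM and sham. Bracketed 95% intervals are of summed UMIs or cell counts and reflect counting error alone; the spread between animals or preparations is unknown. Because the cells were chosen by these counts, their levels of the rule genes and their differences from other cells are descriptions.

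Angptl7, carried by 614 of the 711 cells (Nox4 by 618), lies on chromosome 4 (GRCm38, 148495183 to 148500460, minus strand), within the span of Mtor on the opposite strand. Whether the counting used strand is not given in the sources used here, and Mtor had 17.7 CPM in DMM and 23.1 CPM in sham cells of the rule. Dmkn lies on chromosome 7 (30763756 to 30781063, plus strand) between Sbsn and Krtdap, which are secreted proteins of the epidermis as well. The start region of Angptl7 is shown because this gene marks the cells, from 250 bases before to 50 after the RefSeq start (GRCm38.p6, chr4:148500413-148500712, minus strand, printed 5′ to 3′). Capitals mark CANNTG, the E-box letters that basic helix-loop-helix factors such as scleraxis read.
Angptl7: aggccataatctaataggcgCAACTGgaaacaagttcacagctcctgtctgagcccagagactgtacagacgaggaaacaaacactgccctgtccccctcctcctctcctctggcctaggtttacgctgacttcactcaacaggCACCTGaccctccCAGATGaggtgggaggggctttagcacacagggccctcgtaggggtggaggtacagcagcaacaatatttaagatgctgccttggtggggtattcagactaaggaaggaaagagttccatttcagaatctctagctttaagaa
It held 3 matches of CANNTG and 3 of CAGAC, the Smad-binding letters, counted on both strands. Of 32851 mouse promoters of this length, 72.3% held CANNTG and 49.6% held CAGAC.

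Angptl7 and Nox4, not Slurp1, carried most of the rule. Angptl7 was detected in 87.0% of DMM and 85.5% of sham cells, and Nox4 in 85.5% and 88.6%. Slurp1 was detected in 26.7% of DMM and 30.2% of sham cells, Fgf9 in 27.2% and 35.1%, and Dmkn in 9.33% and 4.62%. The pair of Angptl7 and Nox4 alone admitted 344 cells (48.4%). In all, 487 cells (68.5%) had 2 of the 5 genes, 171 had 3, 49 had 4 and 4 had all 5. Spp1 (osteopontin), listed among the markers but not in the rule, was found in 43.0% of DMM and 38.2% of sham cells. Among other cells inside the same Prg4, Col2a1 and Col1a1 limits, called other Col1a1 cells, Spp1 was in 49.3% and 29.5%, so it did not mark the Angptl7/Nox4 cells. Slurp1 was in 1.85% and 1.79% of erythroid cells, which should lack it and had medians of 10334 and 8685 UMIs. Angptl7 was in 1.56% and 3.74% of them, Nox4 in 3.41% and 2.17%, Fgf9 in 0.0976% and 0.326% and Dmkn in 0.293% and 0.597%.

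The limits of the rule cut through graded values. Just inside the Col1a1 limit (1000 to 1250 CPM) lay 42 cells with a median of 971 CPM of Angptl7, and just outside it (750 to 1000 CPM) lay 43 cells with a median of 466 CPM. A further 1534 cells met every other limit with 1 rule gene only. Inside the last limit, 57 cells had 2 of Postn, Tnn, Mmp13, Cpxm1 and Megf6, and outside it 38 cells had 3.

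The cells did not form 1 cluster. When all kept cells were clustered by their transcriptomes, 333 of the 711 (46.8% [43.1, 50.6]) fell in a cluster led by Angptl7, Npy, Spp1, Slurp1, Abi3bp and Galnt15, and 242 (34.0% [30.6, 37.7]) in a cluster led by Clec3b, Hmcn1, Mfap5, Aspn and Angptl1. These are called the Angptl7/Npy and the Clec3b/Hmcn1 cluster. A further 56 cells fell in a cluster led by Ccl7 and C3 and 56 in a cluster led by Tnn and Mmp13. The Angptl7/Npy cluster held 746 cells, of which 44.6% met the rule. Of its other 413 cells, 239 lacked 2 rule genes and 228 had too little Col1a1. Of the 1151 cells in the Clec3b/Hmcn1 cluster, 21.0% met the rule.

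The mix of clusters differed between the libraries. Of the cells that met the rule, 170 in DMM (44.0% [39.0, 49.2]) and 163 in sham (50.2% [44.6, 55.7]) lay in the Angptl7/Npy cluster. In the Clec3b/Hmcn1 cluster lay 160 DMM cells (41.5% [36.5, 46.5]) and 82 sham cells (25.2% [20.6, 30.3]) of the rule. A ratio between DMM and sham over all the cells can therefore carry the mix, and ratios within each cluster are given beside it. From here on, values given for a cluster cover only its cells that met the rule.

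**Figure D1:**
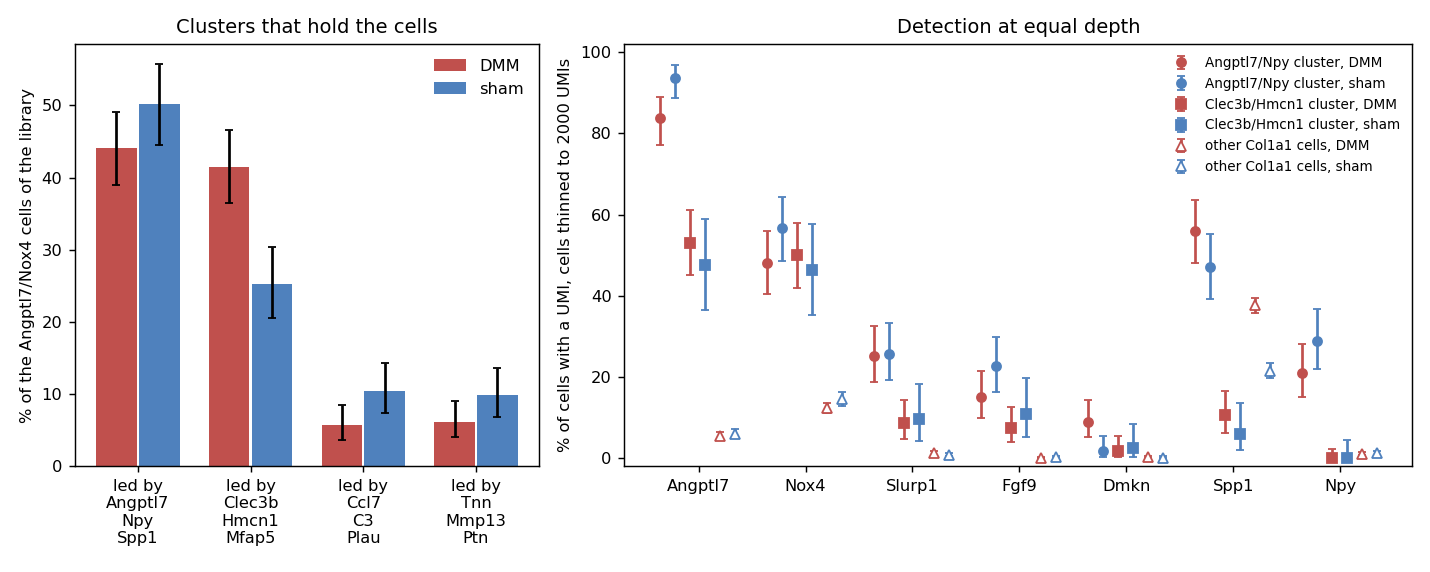
Left, percentage of the Angptl7/Nox4 cells of each library in the 4 clusters with most of them; bars are 95% binomial intervals. Right, percentage of cells with a UMI of each gene after thinning each cell with at least 2000 UMIs to that number. Shown are the Angptl7/Nox4 cells of both main clusters and other Col1a1 cells, with 95% intervals. Of the Angptl7/Nox4 cells, 41.5% in DMM and 25.2% in sham lie in the Clec3b/Hmcn1 cluster, and Npy is at 0 in these after thinning.

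The cells of the rule in both main clusters differed in many genes. Npy (neuropeptide Y, a signalling peptide of neurons) leads a cluster by name and had 602 CPM in DMM and 708 CPM in sham cells of the Angptl7/Npy cluster, but 0.733 and 1.47 CPM in the Clec3b/Hmcn1 cluster. Spp1 had 5796 and 4829 CPM in the first and 172 and 99.7 CPM in the second. Clu (clusterin, a secreted chaperone) had 3765 and 4296 CPM against 111 and 174 CPM, and Chad (chondroadherin, a leucine-rich repeat protein of cartilage matrix) 2499 and 3795 CPM against 95.4 and 90.9 CPM. The Clec3b/Hmcn1 cells had more Clec3b (tetranectin), at 1537 and 1872 CPM against 503 and 954 CPM, and more Aspn (asporin), at 3752 and 2232 CPM against 862 and 794 CPM. Mmp2, a gelatinase, had 954 and 586 CPM there and 211 and 83.2 CPM in the Angptl7/Npy cells. These clusters were made from the same counts, so the differences are descriptions.

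The cells were chosen for carrying rule genes, and levels of these genes in cells of the clusters outside the rule are not given. Among cells of the rule, Angptl7 was graded between the clusters. It had 2326 CPM in DMM and 4181 CPM in sham cells of the Angptl7/Npy cluster, 813 and 1083 CPM in the Clec3b/Hmcn1 cluster, and 70.2 and 126 CPM in other Col1a1 cells. Over single cells of the rule its median was 712 CPM in DMM and 1514 CPM in sham, within 0 to 17957 and 0 to 24525 CPM, so the libraries overlapped widely. In the Clec3b/Hmcn1 cells the medians ran the other way, at 375 CPM in DMM and 264 CPM in sham. Nox4 had 345 CPM in DMM and 529 CPM in sham cells of the Angptl7/Npy cluster, and 362 and 355 CPM in the Clec3b/Hmcn1 cluster. After thinning to 2000 UMIs, Slurp1 was in 25.3% [18.9, 32.6] of DMM and 25.8% [19.2, 33.3] of sham cells of the Angptl7/Npy cluster. In the Clec3b/Hmcn1 cluster it was in 8.75% and 9.76%, and in other Col1a1 cells in 1.31% and 0.837%.

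Compared with other Col1a1 cells, the Angptl7/Nox4 cells had more Clu, Cilp and Prelp and less Col1a1. Of 3559 genes found in at least 25% of the cells in each library, 45 (1.26%) were at least 2-fold higher in both libraries and 16 (0.45%) at least 2-fold lower. Beyond the rule genes, the highest by the smaller of both ratios were Clu, Cilp, Cilp2, Htra4, Prelp, Galnt15, Slc38a1, Chad, Fibin, Lox, Lepr, Adamts6, Sod3, Anxa8, Bmp4 and Fam124a. The rule used the cells' own counts, so nothing is read from these numbers.

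Of the lists, 4 of 12 small leucine-rich proteoglycans, 3 of 12 cartilage matrix genes and 0 of 11 fibrous collagens were at least 2-fold higher in both libraries. At least 2-fold lower in both were 3 of the 11 fibrous collagens and 0 of the proteoglycan and cartilage matrix genes. List genes needed the UMI minimum only, without detection in 25% of cells. The 1.26% of 3559 genes is therefore not their background, and an all-gene share at their filter is not given. This holds for the other list counts against other Col1a1 cells below. Over all 6577 genes at that filter, the median log2 ratio to other Col1a1 cells was -0.02 in DMM and 0.01 in sham. Cilp, the cartilage intermediate layer protein that binds TGF-beta, had 3161 CPM in DMM and 2542 CPM in sham cells of the rule, against 565 and 366 CPM in other Col1a1 cells. Its paralog Cilp2 had 525 and 523 CPM against 103 and 64.1 CPM. Prelp, a proteoglycan that anchors collagen to basement membranes, had 1921 and 1416 CPM against 474 and 301 CPM. In single cells Prelp was widespread, detected in 97.2% of DMM and 95.7% of sham cells, with medians of 1689 and 1315 CPM. Dcn (decorin) had 22951 and 20514 CPM against 9572 and 8351 CPM, and Lox, which cross-links collagen, 437 and 500.3 CPM against 136 and 161 CPM.

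Several of these genes were higher still in cells with cartilage genes. In cells with at least 20000 CPM of Prg4 (lubricin), Cilp had 6127 CPM in DMM and 8846 CPM in sham, and Clu 3094 and 3871 CPM. Chad had 4327 and 4260.0 CPM in cells with at least 2000 CPM of Col2a1, the cartilage collagen. By contrast Angptl7 had 25.3 and 53.3 CPM in the Prg4 cells and 8.02 and 13.9 CPM in the Col2a1 cells, and Fgf9 0.501 and 1.26 CPM and 0.273 and 0.509 CPM. Slurp1 had 88.4 and 87.1 CPM in the Prg4 cells, against 151 and 146 CPM in the Angptl7/Nox4 cells.

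**Figure D2:**
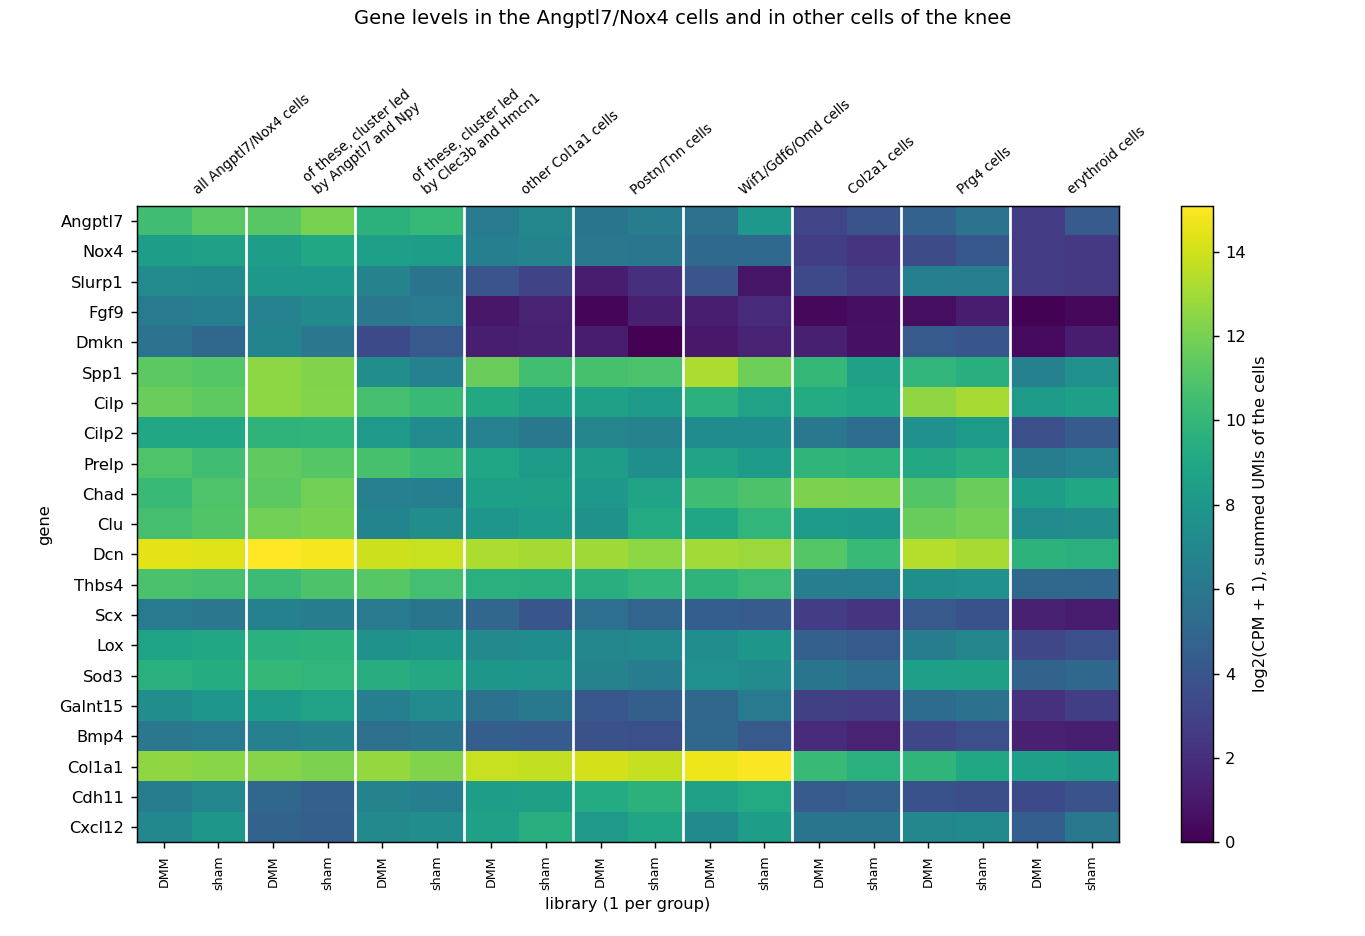
Level of 21 genes, as log2(CPM + 1) of summed UMIs, in all Angptl7/Nox4 cells, in those of each main cluster and in other cells. Each pair holds the DMM (left) and sham library (right), and colours compare columns within a row. Angptl7 and Fgf9 are highest in the left columns, while Cilp and Clu in Prg4 cells and Chad in Col2a1 cells are above their level in all Angptl7/Nox4 cells.

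Enzyme, ligand and receptor genes were also among the higher genes. Sod3, the extracellular superoxide dismutase, had 771 CPM in DMM and 645 CPM in sham cells of the rule, against 249 and 231 CPM in other Col1a1 cells. Of the 16 genes measured on the list of NADPH oxidases and antioxidants, 2 were at least 2-fold higher in both libraries, Sod3 and Nox4. The median log2 ratio of this list to other Col1a1 cells was 0.11 and 0.14, against -0.02 and 0.01 for all genes. Nox4 is a rule gene, so its higher level follows from how the cells were chosen. Cyba, the membrane partner that Nox4 needs, was close to other Col1a1 cells, at 133 and 112 CPM against 112 and 96.6 CPM. Bmp4, a bone morphogenetic protein, had 62.3 and 76.2 CPM against 22.6 and 19.9 CPM. Lepr, the leptin receptor, had 126 and 384 CPM against 29.7 and 128 CPM.

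Nicotinic receptor genes were at or near 0 in the cells. The 9 nicotinic acetylcholine receptor genes listed summed to 3.94 CPM in DMM and 5.98 CPM in sham, and 5 of them were at 0 UMIs. Chrna7, the alpha7 subunit, had 1.97 and 2.39 CPM. Of the 12 Ly6 and uPAR family genes, 6 were measured with at least 100 UMIs and 4 (Slurp2, Ly6d, Ly6h and Psca) were at 0. Of the FGF receptors, Fgfr1 had 311 and 369 CPM and Fgfr2 115 and 153 CPM, while Fgfr4 was at 0.

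Tendon genes were carried by part of the cells. Of 9 tendon and ligament genes measured, 3 were at least 2-fold higher than in other Col1a1 cells in both libraries and 1 at least 2-fold lower. The median log2 ratio of this list was 0.73 in DMM and 1.30 in sham, against -0.02 and 0.01 for all genes. Scx (scleraxis, the transcription factor of tendon and ligament cells) was detected in 33.2% of DMM and 27.1% of sham cells of the rule, against 14.3% and 7.47% of other Col1a1 cells and 1.56% and 1.19% of erythroid cells. Thinned to 2000 UMIs, which left out 4 DMM and 6 sham cells of the rule and 117 DMM and 83 sham other Col1a1 cells with fewer, it was in 12.3% [9.18, 16.0] and 10.0% [6.96, 13.9] of the cells of the rule, against 4.72% and 2.40% of other Col1a1 cells. Thbs4, a thrombospondin of tendon matrix, had 1709.8 and 1592 CPM against 757 and 724 CPM. Tnmd (tenomodulin), the marker of mature tendon cells, was in 8.12% and 6.90% of the thinned cells, against 4.06% and 3.63% of other Col1a1 cells. It had 3.32 CPM in DMM and 25.8 CPM in sham cells of the Angptl7/Npy cluster, and 82.9 and 46.9 CPM in the Clec3b/Hmcn1 cluster.

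Osteoblast genes were lower in the Angptl7/Nox4 cells. Runx2, the osteoblast transcription factor, had 49.9 CPM in DMM and 81.4 CPM in sham cells of the rule, against 352 and 484 CPM in other Col1a1 cells. All 5 osteoblast genes measured (Ibsp, Alpl, Runx2, Bglap and Bglap2) were at least 2-fold lower in both libraries. Reads of Bglap and Bglap2, near-identical copies, may be split between them. The median log2 ratio of this list was -3.45 in DMM and -2.57 in sham, against -0.02 and 0.01 for all genes. The other Col1a1 cells were rich in such cells: 2 or more of Bglap, Ibsp, Ifitm5, Sp7 and Dmp1 were found in 4.15% of DMM and 4.62% of sham Angptl7/Nox4 cells, against 30.0% and 24.1% of other Col1a1 cells. The other Col1a1 cells also held 805 cells with 3 or more of the Postn set, which the rule kept out of the Angptl7/Nox4 cells. The part of this mix in the low values was not tested. Among widely detected genes, chosen after their values were seen, the lowest were Mef2c, a transcription factor of chondrocyte hypertrophy, at 78.1 and 91.0 CPM against 313 and 288 CPM, Cdh11, the cadherin of mesenchymal cells, at 84.6 and 125 CPM against 337 and 376 CPM, and the chemokine Cxcl12, at 132 and 249 CPM against 399 and 738 CPM. Col1a1 had 6217 and 5368 CPM against 14632 and 13389 CPM, although the rule set only its lower limit. Mmp14, a membrane collagenase, had 122 and 105 CPM against 256 and 313 CPM.

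Markers of macrophages, endothelium and skeletal muscle were at or near 0, while markers of other joint cells were present. Ptprc (CD45), C1qa and Adgre1 of macrophages and Cdh5, Kdr and Emcn of endothelium were at 0 UMIs, and the 6 macrophage genes summed to 5.58 CPM in DMM and 2.79 CPM in sham. The 5 endothelial genes summed to 3.61 and 6.78 CPM, and the 4 skeletal muscle genes were at 0. Wif1, Gdf6 and Omd summed to 301 CPM in DMM and 373 CPM in sham, and synovial lining markers to 154 and 142 CPM. Marrow stroma markers, Lepr among them, summed to 265 and 689 CPM, and adventitial fibroblast markers to 155 and 282 CPM. At least 2 of Wif1, Gdf6 and Omd were in 9.59% of DMM and 14.5% of sham cells, against 10.8% and 6.77% of other Col1a1 cells. Although Slurp1, Dmkn and Sbsn are known from skin, the keratinocyte genes Krt5, Krt14, Krt1, Krtdap and Dsp were at 0 UMIs, which allows up to 0.984 CPM in DMM and 1.20 CPM in sham. Krt10 had 15.4 and 16.8 CPM, and Sbsn (suprabasin) 256 and 96.9 CPM. Haemoglobin RNA was present, with Hbb-bs at 0.217% of UMIs in DMM and 0.164% in sham, and 4 and 5 cells carried at least 3 of 6 erythroid genes.

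The share of Angptl7/Nox4 cells depended on what it was taken of. They were 3.90% [3.53, 4.30] of kept cells in DMM and 3.25% [2.91, 3.62] in sham, a ratio of 1.20 [1.04, 1.39]. Of the cells inside the Prg4, Col2a1 and Col1a1 limits they were 11.8% [10.8, 13.0] in DMM and 14.8% [13.3, 16.3] in sham, a ratio of 0.802 [0.699, 0.919]. The other Col1a1 cells were 29.1% of kept cells in DMM and 18.8% in sham, and erythroid cells 10.4% and 18.4%. With at least 3 rule genes there were 111 DMM and 113 sham cells, a log2 ratio of shares of -0.01. The share thus had no direction that held.

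Between DMM and sham, more genes of the Angptl7/Nox4 cells were lower than higher in DMM. Of 6577 genes with at least 100 UMIs, 264 (4.01%) were at least 1.5-fold higher and 675 (10.3%) at least 1.5-fold lower, and 37 (0.563%) and 115 (1.75%) passed 2-fold. The 1.5-fold shares are the background of the list counts below. The share of all genes with a ratio above 1 is not given. With median-of-ratios scaling, which raised every log2 ratio by 0.16, the 2-fold counts were 77 higher and 65 lower. The median log2 ratio over all genes was -0.13 with CPM and 0.03 with that scaling, and the balance of higher and lower genes turned round between the scalings. Ratios also followed gene length: over 6575 genes Spearman's rho with the genomic span was -0.51, with median log2 ratios of 0.25 for the 1315 shortest genes and -0.36 for the 1315 longest. The same trend was present in other Col1a1 cells (rho -0.61), and its part in the results below was not tested except where given.

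**Figure D3:**
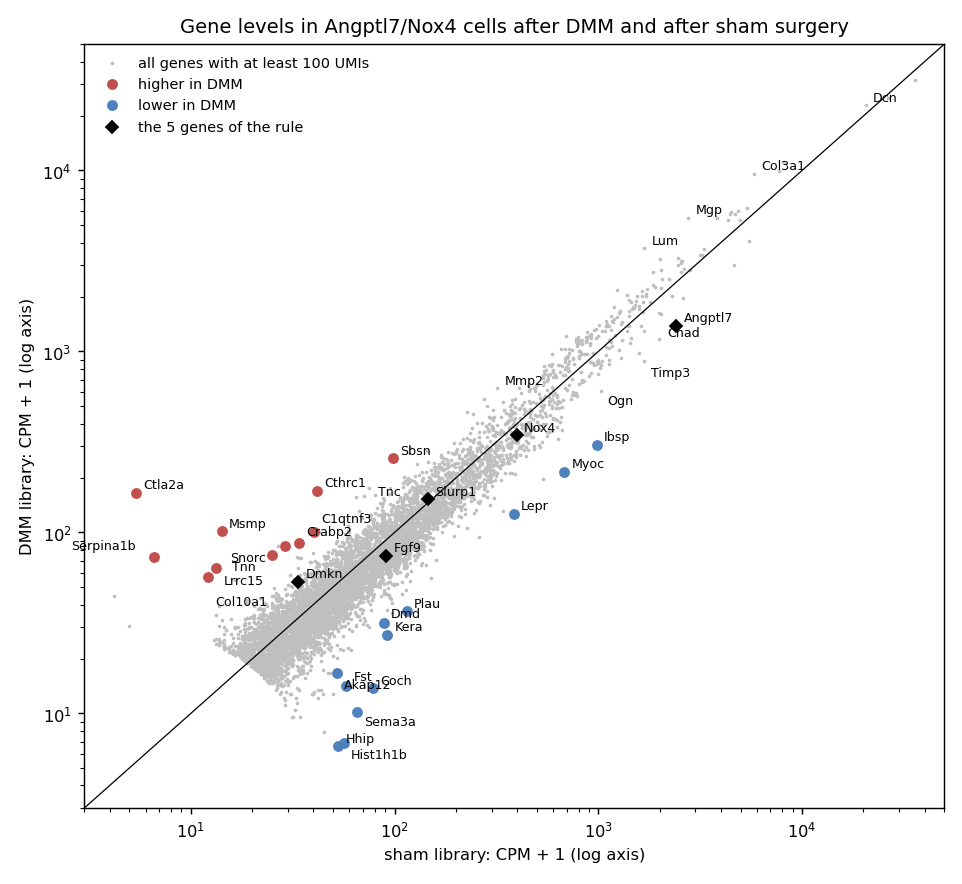
Summed CPM + 1 of each gene in the DMM (y) and sham library (x) of the Angptl7/Nox4 cells, both axes log; red and blue points are genes with the highest and lowest ratios by the naming rule, black diamonds the 5 rule genes, and the line marks equal levels. Angptl7 lies below the line at 1390 CPM in DMM and 2415 CPM in sham, and Lum and Mgp above it.

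Summed over the cells, Angptl7 was lower in DMM. Angptl7 had 1390.3 CPM in the DMM cells and 2415 CPM in the sham cells, a ratio of 0.576 [0.553, 0.599]. Within clusters its log2 ratio was -0.85 in the Angptl7/Npy cells and -0.41 in the Clec3b/Hmcn1 cells, and it was -0.85 in other Col1a1 cells. In the Clec3b/Hmcn1 cells its single-cell median was higher in DMM (375 CPM) than in sham (264 CPM), as was its detection (80.0% and 68.3%). As a rule gene it helped to choose the cells, so these are descriptions. Its relative Angptl1 ran the other way, with 290.3 CPM in DMM and 118 CPM in sham, a log2 ratio of 1.29 (1.17 and 1.21 in the clusters).

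The other rule genes differed less or not evenly. Nox4 had 344 CPM in the DMM cells and 396 CPM in the sham cells, with log2 ratios of -0.62 in the Angptl7/Npy cells and 0.03 in the Clec3b/Hmcn1 cells. Fgf9 had 73.2 CPM in the DMM cells and 90.2 CPM in the sham cells, a ratio of 0.811 [0.671, 0.981]. Slurp1 had 151 CPM in the DMM cells and 146 CPM in the sham cells, a ratio of 1.04 [0.903, 1.19], and in the Clec3b/Hmcn1 cells the log2 ratio was 0.93. Dmkn had 52.5 CPM in the DMM cells and 32.7 CPM in the sham cells, but 51.2% of its 82 sham UMIs lay in 1 cell. Its detection was 9.33% of DMM and 4.62% of sham cells.

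Among genes that the rule did not use, Cthrc1, Tnc, Lum, Mgp and Sbsn were higher in DMM in both main clusters, also with median-of-ratios scaling. Cthrc1 had 169 CPM in the DMM cells and 40.7 CPM in the sham cells, a ratio of 4.16 [3.36, 5.20]. This secreted collagen triple helix repeat protein is known from injured vessels and fibrotic tissue, and it was found in 36.3% of DMM and 13.5% of sham cells. Its log2 ratio was 1.87 in the Angptl7/Npy cells and 1.73 in the Clec3b/Hmcn1 cells, against 0.33 in other Col1a1 cells. Tnc (tenascin C, a matrix protein of wound repair) had 174 CPM in DMM and 73.8 CPM in sham, with log2 ratios of 2.22 and 1.44 in the clusters and 0.03 in other Col1a1 cells. The difference of these ratios between cell groups was not tested.

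Suprabasin and the retinoid carrier Crabp2 followed the same direction. Sbsn had 256 CPM in the DMM cells and 96.9 CPM in the sham cells, a ratio of 2.64 [2.29, 3.06], with log2 ratios of 1.56 and 1.00 in the clusters and 1.20 in other Col1a1 cells. Thinned to 2000 UMIs, Sbsn was in 21.7% [17.7, 26.2] of DMM and 9.72% [6.70, 13.5] of sham cells. Crabp2 had 86.3 CPM in the DMM cells and 33.1 CPM in the sham cells, with log2 ratios of 1.16 and 1.42 in the clusters. Lrrc15, a leucine-rich repeat protein known from TGF-beta-activated fibroblasts, had 62.3 CPM in DMM and 12.4 CPM in sham. It had 125 CPM in DMM and 35.2 CPM in sham in the Clec3b/Hmcn1 cells. In the Angptl7/Npy cells it had 3.32 and 2.87 CPM, near the floors of 2.49 and 2.87 CPM that 3 UMIs give.

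Some of the highest ratios came from few cells. Ctla2a, a cysteine protease inhibitor, had 164 CPM in DMM and 4.39 CPM in sham, was in 5.96% of DMM and 0.615% of sham cells, and was at 0 in the Angptl7/Npy cells. Serpina1b (an alpha-1 antitrypsin), Msmp (microseminoprotein) and Col10a1 (the collagen of hypertrophic cartilage) had 63.2%, 78.2% and 45.6% of their DMM UMIs in 1 cell. Snorc, a chondrocyte proteoglycan, had 29.0% in 1 cell. Without the cells called doublets, the log2 ratio of Snorc was 0.65 in place of 1.58 and that of Col10a1 1.40 in place of 2.31. The value of such a gene describes those cells more than the group. C1qtnf3, an adiponectin relative, had 99.7 CPM in DMM and 39.1 CPM in sham, with log2 ratios of -0.14 and 1.63 in the clusters.

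Lepr, Myoc and Sema3a were lower in DMM in both main clusters. Lepr had 126 CPM in the DMM cells and 384 CPM in the sham cells, a ratio of 0.328 [0.291, 0.369], and it was found in 40.4% of DMM and 71.4% of sham cells. Its log2 ratio was -1.60 in the Angptl7/Npy cells, -1.93 in the Clec3b/Hmcn1 cells and -2.10 in other Col1a1 cells. Lepr is also a marker of marrow stroma. The other markers of that list with enough UMIs, Cxcl12 and Kitl, had pooled log2 ratios of -0.92 and -2.67, and 0.21 and 1.38 in the Angptl7/Npy cells. Ratios within a cluster had no UMI minimum of their own, so any of them can rest on few UMIs. Those of Cxcl12, Kitl, Fst, Sema3a, Kera and Mkx are among these. The part of marrow stroma cells in the Lepr result was not tested. Myoc (myocilin), which like Angptl7 is known from the outflow tissue of the eye, had 215 CPM in DMM and 680.2 CPM in sham, with log2 ratios of -1.51 and -2.08 in the clusters. Sema3a, a repulsive nerve guidance cue, had 9.19 CPM in DMM and 64.6 CPM in sham, with log2 ratios of -2.52 and -2.78, against -0.45 in other Col1a1 cells. Akap12, a kinase scaffold, and Dmd (dystrophin) had 15.7 CPM in DMM and 51.1 CPM in sham and 30.5 CPM in DMM and 87.4 CPM in sham. Fst (follistatin, which binds activin) had 13.1 CPM in DMM and 57.1 CPM in sham, with log2 ratios of -4.20 and -2.93.

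Other low ratios were uneven. Kera (keratocan), a proteoglycan of cornea and tendon, had 26.2 CPM in DMM and 91.4 CPM in sham, with log2 ratios of -4.03 in the Angptl7/Npy cells and 0.47 in the Clec3b/Hmcn1 cells. Ibsp (bone sialoprotein) had 303 CPM in DMM and 982 CPM in sham, and 37.5% of its sham UMIs lay in 1 cell. Hist1h1b (a histone of dividing cells), Coch (cochlin) and Hhip, which binds hedgehog ligands, had 57.6%, 36.4% and 33.1% of sham UMIs in 1 cell. Plau, the urokinase, had 35.8 CPM in DMM and 114 CPM in sham, and its log2 ratio in other Col1a1 cells was -2.31. In the cells with at least 3 rule genes the log2 ratios of Hhip, Ibsp and Plau turned to 0.22, 0.69 and 0.10, and after thinning that of Hist1h1b turned to 0.43. Without the cells called doublets the log2 ratio of Hist1h1b was -1.13, in place of -3.23.

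**Figure D4:**
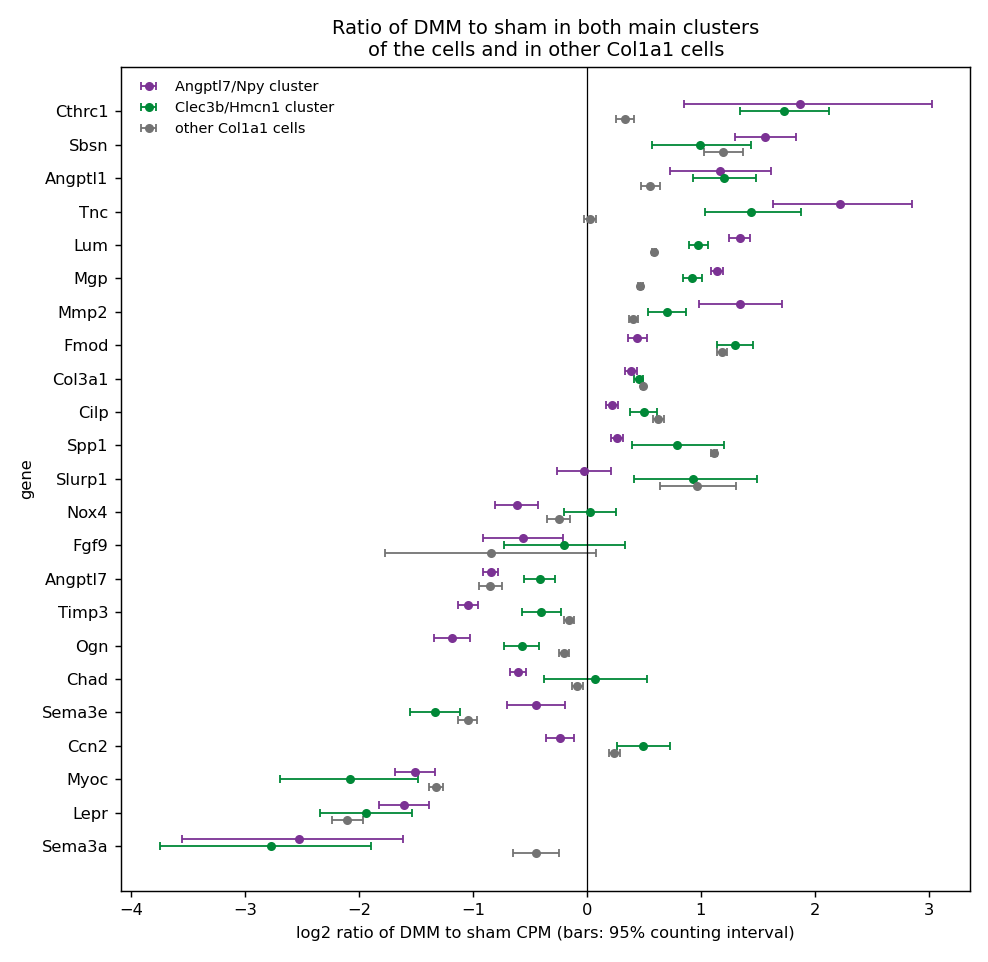
Log2 ratio of DMM to sham CPM for 23 genes in the Angptl7/Nox4 cells of the Angptl7/Npy cluster (purple), of the Clec3b/Hmcn1 cluster (green) and in other Col1a1 cells (grey); bars are 95% counting intervals and the line marks equal levels. Cthrc1, Tnc, Lum and Mgp are above 0 in both clusters, and Lepr, Myoc and Sema3a below 0.

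The small leucine-rich proteoglycans went apart, with lumican (Lum) highest. Of 12 measured, 6 had ratios above 1, with 2 at least 1.5-fold higher and 4 at least 1.5-fold lower (7 above 1 with median-of-ratios scaling). Lum had 3721 CPM in the DMM cells and 1679 CPM in the sham cells, a ratio of 2.22 [2.14, 2.30], and the medians over single cells were 2671 CPM in DMM and 967 CPM in sham. Its log2 ratio was 1.34 and 0.98 in the clusters and 0.59 in other Col1a1 cells. Aspn had 2173 CPM in DMM and 1234 CPM in sham, with log2 ratios of 0.12 and 0.75. Fmod (fibromodulin) had 1768 CPM in DMM and 1190.1 CPM in sham, and Bgn (biglycan) 2052 CPM in DMM and 1389.6 CPM in sham. Chad, with 1177 CPM in DMM and 1974 CPM in sham, and Ogn (osteoglycin), with 605 CPM in DMM and 1025 CPM in sham, had log2 ratios of -0.75 and -0.76. For Chad this held in the Angptl7/Npy cells (-0.60) but not in the Clec3b/Hmcn1 cells (0.07).

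Collagens differed modestly. The 11 fibrous collagen genes had a median log2 ratio of 0.24, with 8 above 0 and 1, Col3a1, past 1.5-fold. Col3a1 had 9587 CPM in the DMM cells and 5793 CPM in the sham cells, a ratio of 1.65 [1.62, 1.69], with log2 ratios of 0.38 and 0.46 in the clusters, both smaller than the pooled log2 ratio of 0.73. Col1a1 had 6217 CPM in the DMM cells and 5368 CPM in the sham cells. Col12a1, a collagen of fibre surfaces, had 418 CPM in DMM and 623 CPM in sham, a log2 ratio of -0.58.

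Inhibitors of calcification and of proteases lay on both sides. Mgp (matrix Gla protein, an inhibitor of calcification) had 5493 CPM in DMM and 2764 CPM in sham, a ratio of 1.99 [1.93, 2.04], with single-cell medians of 1669 and 856 CPM. Its log2 ratio was 1.14 and 0.93 in the clusters and 0.47 in other Col1a1 cells. Mmp2 had 625 CPM in the DMM cells and 319 CPM in the sham cells, with log2 ratios of 1.34 and 0.70. Timp3, a matrix-bound inhibitor of metalloproteases, had 887 CPM in DMM and 1674 CPM in sham, a ratio of 0.530 [0.505, 0.556], with log2 ratios of -1.04 and -0.40 in the clusters. Of the 13 proteases and inhibitors, 2 were at least 1.5-fold higher, Mmp2 and Timp1, and 4 at least 1.5-fold lower, with a median of -0.01 (0.15 with median-of-ratios scaling).

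Nerve guidance and FGF genes lay on the lower side. Of 8 guidance and neurotrophin genes measured, 5 were at least 1.5-fold lower, with a median log2 ratio of -0.71 (-0.61 in the Angptl7/Npy and -0.88 in the Clec3b/Hmcn1 cells). Slit3 had 155 CPM in DMM and 306 CPM in sham, and Sema3e 195 CPM in DMM and 331 CPM in sham. These genes are long, with a median span of 199 kb, and after subtracting the median of genes of like span the list median was -0.34. The list had a median of -0.74 in other Col1a1 cells too. All 9 FGF genes measured had ratios below 1 (with median-of-ratios scaling 1, Dusp6, lay above 1). Of these 9, 4 were at least 1.5-fold lower, against 10.3% of all genes measured. The median of the list was -0.41, against -0.13 for all genes and -0.34 for the list in other Col1a1 cells. Fgf7 had 12.1 CPM in DMM and 26.7 CPM in sham, Fgf18 34.1 CPM in DMM and 53.5 CPM in sham and Spry1, a feedback inhibitor of FGF signalling, 32.5 CPM in DMM and 55.9 CPM in sham. Subtracting the span median left -0.43 for this list, with 1 of the 9 above 0.

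Other signalling lists lay closer to the median of all genes. The 15 TGF-beta pathway genes had a median log2 ratio of -0.22, with 0 at least 1.5-fold higher and 1, the receptor Tgfbr1, at least 1.5-fold lower at 185 CPM in DMM and 278 CPM in sham, and with median-of-ratios scaling 6 lay above 0 and the median was -0.06. The 13 BMP and activin genes had a median of -0.27, with Bmp2 at 85.3 CPM in DMM and 152 CPM in sham, a log2 ratio of -0.83. The 6 hedgehog and PTHrP genes had a median of -0.28 and the 4 Wnt genes one of -0.20. Igfbp5, an IGF-binding protein, had 3004 CPM in DMM and 4641 CPM in sham, and Igf1 477 CPM in DMM and 302 CPM in sham, with log2 ratios of -0.22 and 0.88 in the clusters.

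Energy metabolism genes lay on the higher side. All 12 respiratory chain genes had ratios above 1, and 4 were at least 1.5-fold higher, against 4.01% of all genes measured. Their median log2 ratio was 0.49 (0.45 and 0.44 in the clusters), against -0.13 for all genes. Cox4i1, a subunit of cytochrome c oxidase, had 541 CPM in DMM and 377 CPM in sham, and Cox6c 356 CPM in DMM and 233 CPM in sham. These genes are short, with a median span of 5.74 kb, and subtracting the median of genes of like span left 0.28, with 10 of the 12 above 0. Of 13 glycolysis and hypoxia genes, 5 were at least 1.5-fold higher and 1 lower, with a median of 0.44 that became 0.37 after that subtraction. Ndufa4l2, a hypoxia-induced mitochondrial protein, had 544 CPM in DMM and 272 CPM in sham, and Gapdh 625 CPM in DMM and 407 CPM in sham. Egln3, a prolyl hydroxylase of the hypoxia response, was the lower gene, with 28.2 CPM in DMM and 49.1 CPM in sham. In other Col1a1 cells the medians of these lists were 0.51 and 0.51, the same direction as in the Angptl7/Nox4 cells.

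**Figure D5:**
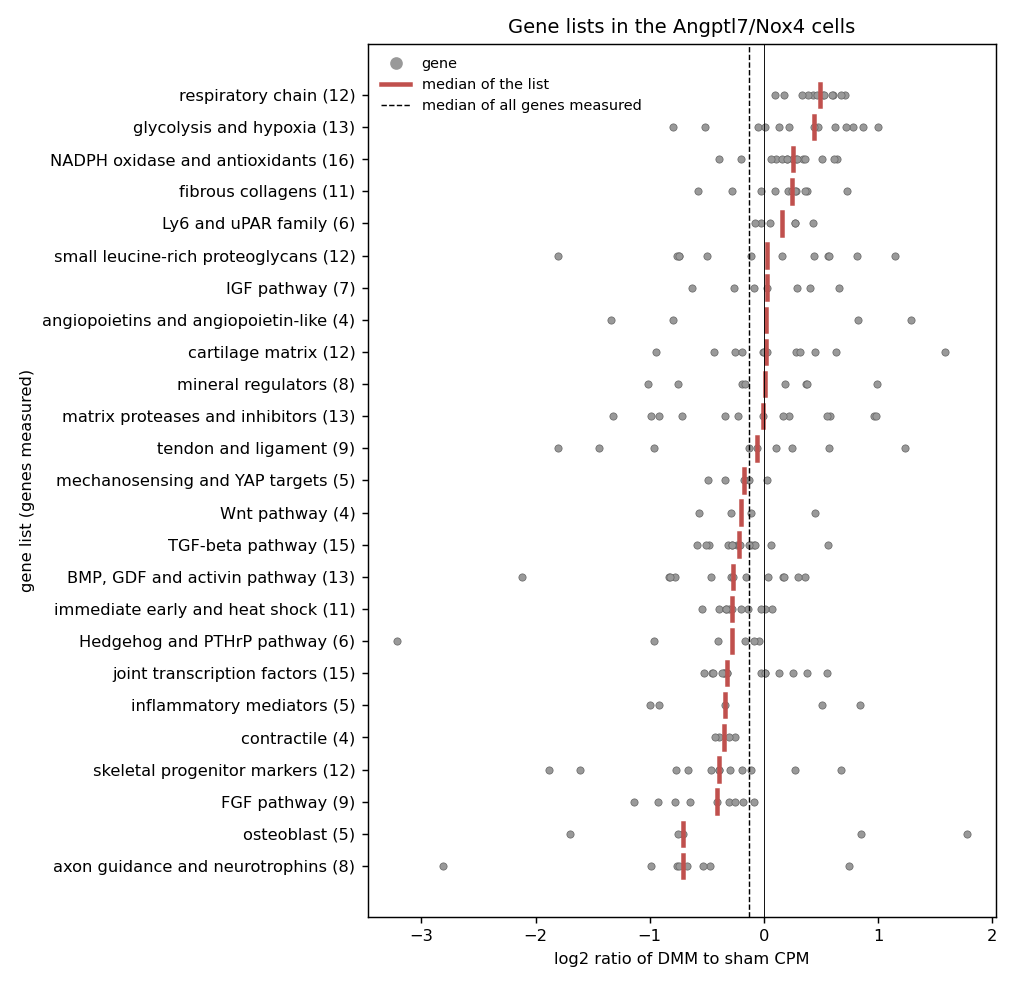
Log2 ratio of DMM to sham CPM in the Angptl7/Nox4 cells for each measured gene (grey points) of 25 lists, with the list median (red bar) and the median of all genes (dashed line, -0.13). Respiratory chain genes lie to the right of 0, and most guidance genes to the left.

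Antioxidant genes leaned the same way by small amounts. Of 16 NADPH oxidase and antioxidant genes, 14 had ratios above 1, with a median log2 ratio of 0.26, against 0.23 in other Col1a1 cells, and 2 at least 1.5-fold higher. Gpx1 and Gpx3, glutathione peroxidases that remove hydrogen peroxide, had 786 CPM in DMM and 551 CPM in sham and 1447 CPM in DMM and 1183 CPM in sham. Sod3 had 771 CPM in DMM and 645 CPM in sham. Nox4 and Txnrd1, thioredoxin reductase, were the 2 with ratios below 1. Subtracting the median of genes of like span left 0.15, with 13 of the 16 above 0.

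Tendon genes were mixed between DMM and sham. Of 9 measured, 1 was at least 1.5-fold higher (Tnc) and 3 at least 1.5-fold lower, with a median log2 ratio of -0.06 (0.10 with median-of-ratios scaling). Scx had 73.5 CPM in the DMM cells and 61.8 CPM in the sham cells, a ratio of 1.19 [0.964, 1.47]. Thbs1 (thrombospondin 1) had 326 CPM in DMM and 635 CPM in sham, with log2 ratios of -1.03 in the Angptl7/Npy cells and 0.83 in the Clec3b/Hmcn1 cells. Mkx (mohawk, a tendon transcription factor) was outside the naming rule and was chosen after its values were seen: it had 35.1 CPM in DMM and 95.7 CPM in sham, with log2 ratios of -0.85 and -2.51. Thinned to 2000 UMIs, it was in 7.59% of DMM and 15.7% of sham cells.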

How the data were processed

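The deposited values were UMI counts per gene and barcode from 10x 3' libraries of sorted, pooled knee cells. The authors' counts carry Cell Ranger 7.1.0 per the file headers, while the submitters' processing notes name Cell Ranger 3.0.1 and mm10. 6 bulk columns that matched no sample label were not used. Kept barcodes had 500 or more genes and no more than 10% of UMIs from mitochondrial genes, and doublets stayed in. UMIs were summed over the cells of each library, since 1 library per group allows no test. CPM have exact Poisson, ratios between libraries exact conditional binomial and shares Clopper-Pearson 95% intervals; ratios of shares have a log-scale normal interval. Intervals and floors of 3 counts cover counting error only. Genes needed 100 UMIs, and 25% of cells for the all-gene comparison with other Col1a1 cells but not for the lists. Clusters came from scanpy 1.11.5 and leidenalg 0.10.2, with Python 3.11.15 and scipy 1.17.1.

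The cells and gene lists were chosen with earlier results of these data known. Genes named were those of the rule and its limits, the 20 highest over other Col1a1 cells, 12 in each direction between DMM and sham, and up to 6 per list by UMIs; some that met these criteria are not reported here. Others were chosen after their values were seen: cluster leaders, Chrna7, Col12a1, Cyba, Dpp4, Egln3, Fgf18, Fgf7, Kitl, Krt10, Mkx, Mtor, Ogn, Pi16, Tgfbr1, Timp1, Tnmd and Txnrd1. Poisson counts of 6577 genes were simulated without spread between cells. In them, intervals lay above 1 for 99% of 100 genes with 2-fold and 59% of 100 with 1.25-fold changes between DMM and sham. The data had spread between cells, so these rates need not hold for them. Alternatives were other limits, scalings, depths and clusters.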

Additional observations from a re-analysis of the deposited data

Results flagged for a closer look

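Among the 37 named genes followed under the alternatives, 5 were flagged for the sign of their log2 ratio of DMM to sham. The signs were opposite in the Angptl7/Nox4 cells and in other Col1a1 cells, and both counting intervals excluded equal levels. The difference was not tested, and no count over all measured genes is given. C1qtnf3 had 1.35 in the Angptl7/Nox4 cells and -0.62 in other Col1a1 cells. Ibsp had -1.70 and 0.55, with 20.0% of its DMM and 37.5% of its sham UMIs in 1 cell each. Serpina1b had 3.69 and -0.66, and Msmp 2.94 and -1.38, with 63.2% and 78.2% of their DMM UMIs in 1 cell. Prg4, which the rule limited, had -0.19 and 0.03.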

How the results depend on the processing

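No paired analysis was possible because each group had 1 library. Of 547 named-gene ratios under the alternatives listed at the start, 439 moved by less than their interval, 98 moved further and 10 reversed; of 36 added after seeing the data, 12 stayed, 19 moved and 5 reversed. Of 401 list medians 345 stayed, and of 53 added ones 31. The log2 ratio of shares was -0.011 with at least 3 rule genes and -0.32 within the limits. Genes 2-fold higher and lower in DMM (37 and 115 of 6577) numbered 36 and 52 of 3031 with at least 3 rule genes, 38 and 69 of 3637 in the Angptl7/Npy and 50 and 52 of 3518 in the Clec3b/Hmcn1 cluster. Thinning to 2000 UMIs gave 12 higher and 15 lower of 1249, and median-of-ratios scaling 77 and 65 of 6577. A minimum of 200 UMIs gave 23 and 46 of 4408, and of 50 UMIs 72 and 217 of 8666. Genes higher than in other Col1a1 cells (45 of 3559) were 215 against all other cells with a Serpinh1 UMI, 25 after thinning and 101 with at least 3 rule genes. Thinning and the limit of at least 3 rule genes also left fewer genes measured. Log2 ratios that reversed were Hhip 0.22, Ibsp 0.69 and Plau 0.10 with at least 3 rule genes, Prg4 0.76 without the Prg4 and Col2a1 limits, and C1qtnf3 -0.14 in the Angptl7/Npy cluster. In the Clec3b/Hmcn1 cluster they were Dmkn -0.88, Nox4 0.028, Serpina1b -1.32, Msmp -0.74 and Kera 0.47. After thinning they were Spp1 -0.081, Megf6 -0.74, Col10a1 -0.48, Hist1h1b 0.43 and Hhip 1.43. The cause was not tested; thinning and single clusters leave fewer UMIs.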

Other observations

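Further gene lists were compared between DMM and sham. The 11 immediate early and heat shock genes had a median log2 ratio of -0.28, with 0 past 1.5-fold in either direction, against -0.03 in other Col1a1 cells. Fos, an early response transcription factor, had 1973 CPM in DMM and 2590.0 CPM in sham. The 15 joint transcription factors had a median of -0.32, with 0 past 1.5-fold, which became 0.01 after subtracting the median of genes of like span. The 12 skeletal progenitor markers had a median of -0.39, against -0.59 in other Col1a1 cells, with 1 at least 1.5-fold higher and 4 at least 1.5-fold lower. All 3 adventitial fibroblast markers were at least 1.5-fold lower: Dpp4, a surface peptidase, had 11.8 CPM in DMM and 43.5 CPM in sham, Cd34 99.4 CPM in DMM and 169 CPM in sham and Pi16 43.6 CPM in DMM and 69.0 CPM in sham. Cells with 2 or more of these 3 genes were 8.55% of DMM and 14.5% of sham cells of the rule, and their part in the progenitor values was not tested. The 4 contractile genes had a median of -0.35 and the 2 cell cycle genes one of -0.69, which was -0.19 without the cells called doublets. Of 5 inflammatory mediators, 1 was at least 1.5-fold higher and 2 lower, with Csf1, the macrophage growth factor, at 50.8 CPM in DMM and 101 CPM in sham. Of 5 osteoblast genes, 2 were at least 1.5-fold higher (Bglap and Bglap2) and 3 lower, with a median of -0.71. Within the clusters, without a UMI minimum of their own, the osteoblast median was 1.12 in the Angptl7/Npy cells and -1.45 in the Clec3b/Hmcn1 cells. With the UMI minimum applied within the Angptl7/Npy cells it was -0.23, and with at least 3 rule genes it was 0.69. The osteoblast median thus had no direction that held.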
